A study of Rattus norvegicus with 4 samples.

Results

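CNTF and IL-6 family signalling was examined in rat trigeminal nerve through 8 genes of the pathway: Clcf1, Cntf, Cntfr, Lifr, Osmr, Il6st, Stat3 and Socs3. All 8 were found by symbol among the 32623 genes of the count table. Spatial transcriptomics was performed on Wild type adult male Sprague–Dawley rats with a model of trigeminal neuralgia (TN), in which the trigeminal root is compressed mechanically on 1 side. The compressed sides of 3 animals, with root, semilunar ganglion and proximal branches, lay on 3 capture areas named TN1, TN2 and TN3, with 1 animal each. Tissue of 2 animals shared the healthy control (HC) area and cannot be separated by barcode, so HC is 1 sample with no spread of its own. The series description takes HC from the healthy side of TN animals, whereas the methods call the controls sham-operated. The sources used here give neither age nor day of sampling. HC is taken as labelled, and condition and capture area cannot be told apart in any comparison of TN with HC.

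The cytokines of this family act through shared receptor subunits. CNTF, which myelinating Schwann cells hold in peripheral nerve, and CLCF1, a related secreted cytokine, bind the receptor CNTFR on the cell surface. CNTFR has no signalling domain of its own and recruits LIFR and gp130 (encoded by Il6st), while OSMR joins gp130 to receive oncostatin M. The subunits carry Janus kinases that phosphorylate STAT3, which enters the nucleus and switches on target genes, among them Socs3, whose product blocks the receptor again. In sensory ganglia the pathway is known for its part in the response of neurons and glia to axon injury. The phosphorylation of STAT3 is not seen by RNA counts.

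The 4 areas held 6773 spots, from 1256 in TN2 to 2013 in HC, and from 23546025 unique molecular identifiers (UMIs, counted cDNA molecules) in TN1 to 41335930 in HC. The median per spot ran from 9487 UMIs in TN1 to 30808 in TN2, and mitochondrial genes took between 5.9% (HC) and 11.6% (TN1) of UMIs. Levels are given as the UMIs of a gene per 1000000 UMIs of the same spots (CPM). A spot is a small region with several cells or parts of cells, so fewer cells of a type and less RNA per cell cannot be told apart. Of 8 nerve injury markers, 7 were above HC in all 3 TN areas, and their summed level was 862 CPM in TN1, 1597 CPM in TN2, 1000 CPM in TN3 and 498 CPM in HC. The areas also differed in tissue. The summed connective tissue markers were at 1974 CPM in TN1, 5777 CPM in TN2, 5583 CPM in TN3 and 1450 CPM in HC, and the summed macrophage markers at 427, 921, 1337 and 285 CPM in the same order. The spots were clustered into 10 groups on the expression of other genes, with all genes of the pathway left out. Spots with sensory neuron markers (Calca, Prph, Scn10a and others) as the highest tissue list formed the ganglion region, those led by Prx, Pmp22 and other Schwann cell myelin genes the peripheral myelin region, and those led by Mog, Mobp and other oligodendrocyte genes the central myelin region. Lists were scored by the mean of log2(CPM + 5), centred per gene over the clusters, so a score is relative to the other clusters. Cluster 4 had like scores for sensory neuron (1.21) and Schwann cell myelin genes (1.154) and stayed unnamed. Cluster 6 had like scores for connective tissue (1.3) and peripheral myelin genes (1.231) and stayed unnamed too. It came from 2 areas, with 349 spots in TN2, 475 in TN3, 1 in TN1 and 0 in HC, so that it may mark those areas rather than a tissue. The regions rest on the same spots, and a gene that varies with the clustered genes differs between regions by construction to some extent.

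Over all spots, the areas fell into different orders for different members. Clcf1 had 17 (TN1), 534 (TN2), 567 (TN3) and 14 (HC) UMIs, or 0.722, 13.8, 17.6 and 0.339 CPM. TN1 was close to HC and far from the other TN areas, and 1 spot of TN1 held 6 of its 17 UMIs. Cntf was at 183 CPM in TN1, 77 CPM in TN2, 168 CPM in TN3 and 96.7 CPM in HC, so that TN1 and TN3 were high and TN2 lay below HC. Cntfr, the binding subunit, was at 43, 28.4, 26.3 and 33.7 CPM in the same order, highest in TN1 and lowest in TN3. Lifr was at 6.88, 5.55, 4.81 and 5.98 CPM, again with TN1 highest. Il6st was at 1.78, 2.12, 1.89 and 1.36 CPM, from 42 to 82 UMIs per area, with HC the lowest of the 4. Stat3 was at 124, 193, 168 and 168 CPM, with TN1 lowest and TN3 and HC level. Osmr had 2, 13, 19 and 6 UMIs and Socs3 had 1, 11, 7 and 2 UMIs, too few for more than their counts. The exact 95% Poisson intervals of Socs3 ran from 0.142 to 0.508 CPM in TN2 and from 0.00586 to 0.175 CPM in HC, which overlap. These intervals cover counting error only.

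**Figure D1:**
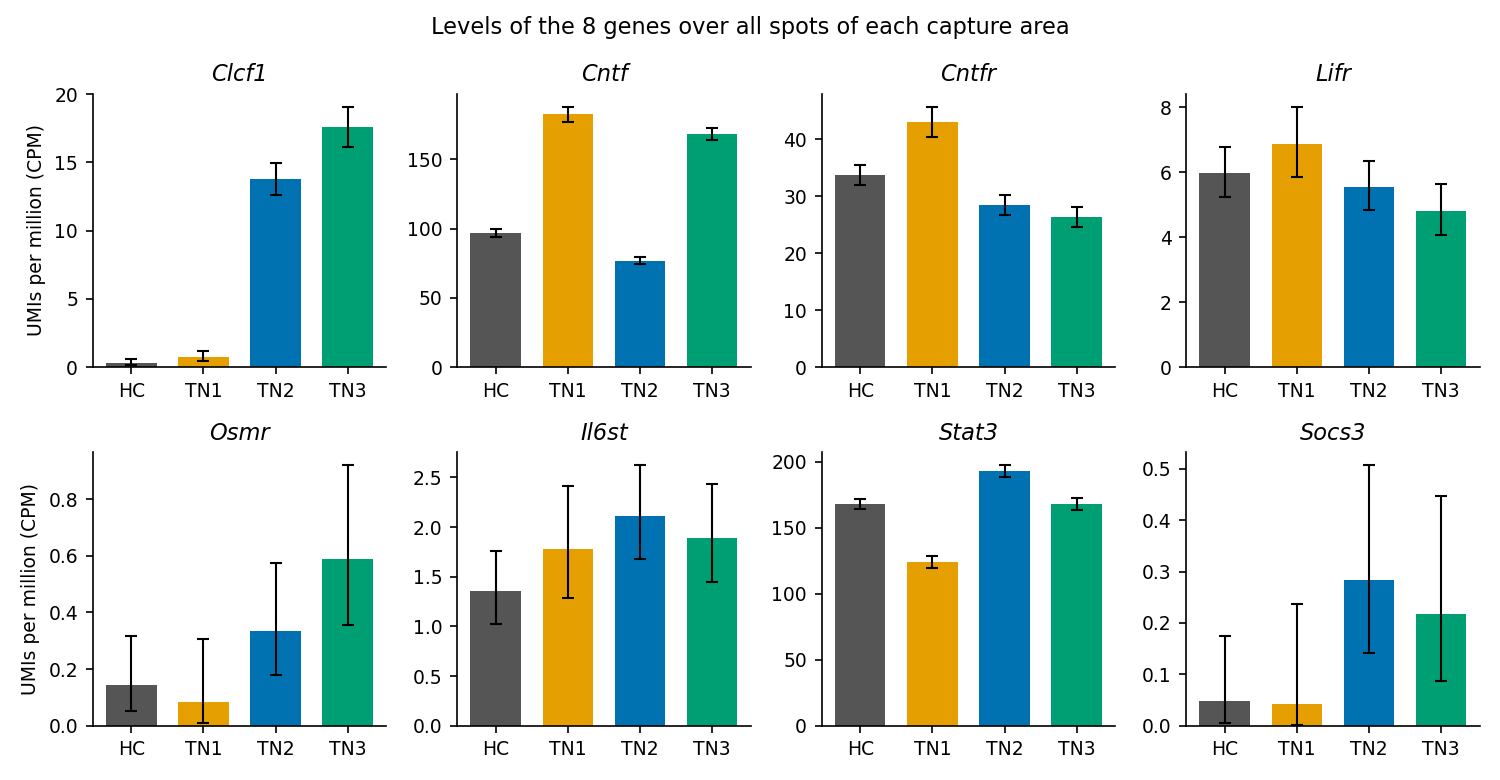
Level in CPM (vertical axis from 0) of the 8 genes over all spots of HC, TN1, TN2 and TN3. Bars are single capture areas and error bars are exact 95% Poisson intervals, which cover counting error only. Clcf1 stood at 13.8 and 17.6 CPM in TN2 and TN3 and under 1 CPM in TN1 and HC, while Cntf was highest in TN1 and lowest in TN2.

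Among the ligands, Cntf marked the peripheral myelin. Peripheral myelin spots held 29% of all Cntf UMIs and 6.81% of all UMIs. Cntf was at 711 CPM there in TN1 and 414 CPM in TN3, and the few peripheral myelin spots of the other areas gave 401 CPM (HC, 18 spots) and 361 CPM (TN2, 13 spots). Every one of these values lay above every value of any other region. Cluster 4, with its mixture of neuronal and Schwann cell genes, followed at 195 ± 48.8 CPM (SD, n = 4 areas), and its values overlapped with those of cluster 6 at 142 ± 19.2 CPM (n = 2). The astrocyte region had 120 ± 21.9 CPM (n = 2), central myelin 82.8 ± 19.7 CPM, blood and bone 74.6 ± 18.1 CPM and ganglion 66.6 ± 10.5 CPM (n = 4 each), and the values of the last 3 overlapped across areas. Connective tissue followed with 52.1 ± 9.17 CPM (n = 2), and the central neuron region was lowest at 19.3 and 39.2 CPM.

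Tests between regions were made on summed UMIs with the capture area as a block, by edgeR's quasi-likelihood test with Benjamini-Hochberg adjustment over all genes. Between peripheral and central myelin within TN1 and TN3, 20% of 9786 genes passed (9.63% higher in peripheral myelin, 10.4% lower), and of 5 members tested 2 were higher and 0 lower. In both areas alike, 35.2% of genes were higher in peripheral myelin and 33.8% lower. Cntf was higher in peripheral than in central myelin, with a log2 difference of 2.56 (SE 0.27, adjusted p = 1.06e-05), against 93.6 CPM in the central myelin of TN1 and 89.6 CPM in that of TN3. It was lower in the ganglion than in peripheral myelin (log2 -3.04, SE 0.16, adjusted p = 3.77e-16). The ganglion also lay below central myelin, by a smaller log2 difference of -0.55 (SE 0.12, adjusted p = 0.00168, 4 areas), and in TN2 the levels were side by side at 53.2 and 53.5 CPM. With TN1 and TN3 alone, the tests that involve peripheral myelin left 1 residual degree of freedom.

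Clcf1 followed another map. Cluster 6, present in TN2 and TN3, held 41.9% of its UMIs in TN2 and 61.4% in TN3. Levels in cluster 6 were 20.1 CPM in TN2 and 33.7 CPM in TN3, against 13.8 and 17.6 CPM over all spots of these areas, and 23.9 and 22.6 CPM in the connective tissue region of the same areas, which overlap. The astrocyte region followed with 7.93 and 17.5 CPM. Peripheral myelin had 4.28 CPM in TN1 and 11.9 CPM in TN3, and central myelin 1.26 ± 1.21 CPM (n = 4), from 0 to 3 UMIs per area. Clcf1 was higher in peripheral than in central myelin (log2 2.71, SE 0.71, adjusted p = 0.0141), from 1 and 2 UMIs in central myelin, and DESeq2 gave an adjusted p of 0.207 and the fit without the area block 0.118. The ganglion was lower than peripheral myelin (log2 -1.61, SE 0.48, adjusted p = 0.00546), with 0 and 49 UMIs in the ganglion of TN1 and TN3, and without the area block the adjusted p was 0.49. Ganglion against central myelin gave a log2 difference of 1.47 (SE 0.65, adjusted p = 0.0746), and 1.81 without TN1 (adjusted p = 0.0182). The latter leaves out an area with 0 UMIs in the ganglion and 1 in central myelin.

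**Figure D2:**
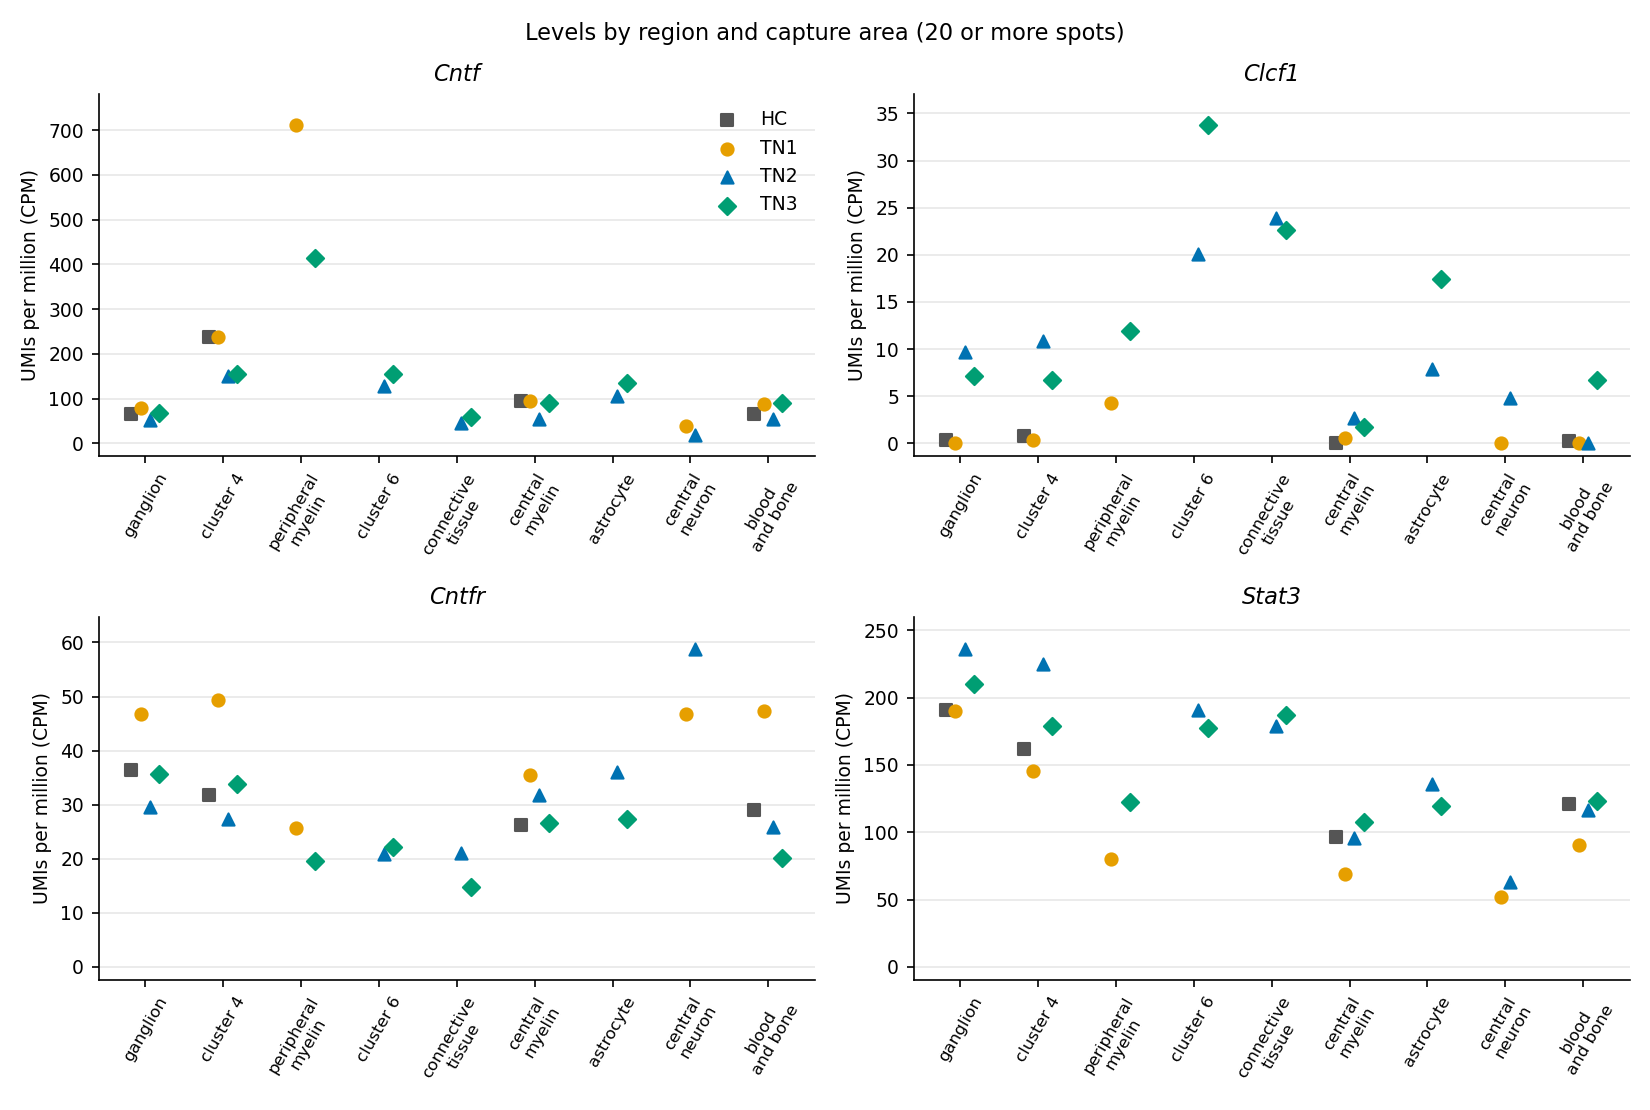
Level in CPM (vertical axis) of Cntf, Clcf1, Cntfr and Stat3 in 9 regions (horizontal axis). Each point is the summed level of 1 region in 1 capture area with 20 or more of its spots, with colour and shape for HC, TN1, TN2 and TN3. Cntf stands apart in peripheral myelin (711 and 414 CPM), Clcf1 is highest in cluster 6 and connective tissue of TN2 and TN3, and Stat3 is highest in the ganglion and lowest in the central neuron region.

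The receptors were spread more evenly. Cntfr was highest in the central neuron region, at 46.7 CPM in TN1 and 58.8 CPM in TN2. The ganglion (37.1 ± 7.09 CPM, n = 4) and cluster 4 (35.6 ± 9.57 CPM, n = 4) came next, with values that overlapped with each other and with the central neuron region. The ganglion held 48.1% of the Cntfr UMIs and 42.7% of all UMIs. Peripheral myelin (25.7 CPM in TN1, 19.7 CPM in TN3), cluster 6 (20.9 and 22.2 CPM) and connective tissue (14.8 and 21.1 CPM) were at the lower end and overlapped. Between ganglion and peripheral myelin, 55% of 11174 genes passed (28.2% higher in the ganglion, 26.8% lower), with 2 members higher and 3 lower of 6 tested. Cntfr was higher in the ganglion there (log2 0.72, SE 0.18, adjusted p = 0.0012), the reverse of its ligand Cntf. With DESeq2 the adjusted p was 0.0572, and without the area block 0.0674. Between ganglion and central myelin Cntfr gave a log2 difference of 0.09 (SE 0.14, adjusted p = 0.618).

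Lifr, a signalling subunit, was at 10.3 CPM in TN1 and 6.62 CPM in TN3 in peripheral myelin, at 7.07 ± 1.22 CPM in cluster 4 and at 6.45 ± 1.02 CPM in the ganglion (n = 4 each), and the lowest mean was that of the central neuron region (2.25 and 3.74 CPM). Its log2 differences were 0.45 (SE 0.28, adjusted p = 0.196) between ganglion and central myelin, -0.45 (SE 0.31, adjusted p = 0.215) between ganglion and peripheral myelin, and 1.32 (SE 0.53, adjusted p = 0.104) between both myelins. Il6st, the subunit that the whole family shares, had 76 UMIs in the ganglion, at 1.3 ± 0.329 CPM (n = 4), and 21 UMIs in central myelin, at 2.53 ± 0.8 CPM (n = 4). It lay lower in the ganglion than in central myelin in all 4 areas, as did 31.6% of genes (log2 -1.16, SE 0.37, adjusted p = 0.0203). DESeq2 (0.0709) and the fits without TN2 (0.052) or TN3 (0.0704) did not keep this call. Against peripheral myelin it was lower as well (log2 -1.49, SE 0.52, adjusted p = 0.0157), from 7 to 14 UMIs per sum, and DESeq2 gave 0.238 and the fit without the area block 0.103. Osmr, the oncostatin M receptor subunit, had 40 UMIs in all, of which 8 lay in the ganglion, 8 in cluster 6 and 7 in peripheral myelin.

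The transducer Stat3 was highest in the ganglion. The ganglion held 52.4% of its UMIs and 42.7% of all UMIs, and its levels there were 190 CPM in TN1, 236 CPM in TN2, 210 CPM in TN3 and 191 CPM in HC. Connective tissue (183 ± 6.01 CPM, n = 2) lay just below these values, and cluster 6 (184 ± 9.97 CPM, n = 2) and cluster 4 (178 ± 34.5 CPM, n = 4) overlapped with them. Central myelin had 92.5 ± 16.3 CPM (n = 4), and the central neuron region was lowest at 51.7 and 63.3 CPM. Between ganglion and central myelin, where 56.9% of 11052 genes passed (28.5% higher, 28.4% lower), 1 of 6 members tested was higher in the ganglion and 2 were lower. Stat3 was the member that was higher (log2 0.93, SE 0.12, adjusted p = 6.97e-05) and was so in 4 of 4 areas, as were 32.1% of genes, while 31.6% were lower in each. It was also higher in the ganglion than in peripheral myelin (log2 0.86, SE 0.14, adjusted p = 5.98e-06), whereas peripheral and central myelin gave a log2 difference of 0.17 (SE 0.21, adjusted p = 0.663). Its inhibitor Socs3 had 21 UMIs in all, with 9 in the ganglion and 7 in cluster 6.

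Of the other genes of the pathway, from lists of ligands, receptors, signal transducers, inhibitors and STAT3 target genes, 8 of 16 target genes tested were higher in the ganglion than in central myelin and 3 were lower (28.5% and 28.4% of all genes). Vip (vasoactive intestinal peptide, log2 2.92), Reg3b (a secreted lectin, 3.35), Hamp (hepcidin, 2.45), the inhibitor gene Cish (1.62) and the adaptor gene Shc1 (0.73) were higher, and Gfap (the astrocyte filament, -4.52), Fos (-1.96), the phosphatase genes Ptpn6 (-1.56) and Ptpn11 (-1.10) and Il6r (-0.89) were lower. Against peripheral myelin 5 of 15 target genes were higher in the ganglion and 7 lower (28.2% and 26.8% of all genes). In peripheral against central myelin 4 of 14 target genes were higher and 2 lower (9.63% and 10.4% of all genes).

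The next question was whether the members differed between compressed and control nerve. Sums of TN1, TN2 and TN3 were tested against HC, which was assumed to vary like the TN areas, and the fit left 2 residual degrees of freedom. Levels in these comparisons are CPM after TMM normalization. Over all spots edgeR called 0 of 14902 genes (0%), while 1271 had an unadjusted p under 0.05 and DESeq2 called 144. Of the 8 members, 0 were called. Clcf1 and Il6st lay above HC in all 3 TN areas, as 28.7% of all genes did, and 0 members lay below HC in all 3, as 30.6% of genes did. Clcf1 was at 10.6 ± 8.8 CPM in TN (SD, n = 3) and 0.353 CPM in HC, a log2 difference of 4.89 (SE 2.05, adjusted p = 0.556). The spread came from TN1, at 0.715 CPM. Without TN1 the log2 difference was 5.44 (SE 0.38). That fit leaves out the TN area closest to HC in Clcf1, so only the effect size is given. DESeq2 on all 4 areas gave an adjusted p of 0.0191. The connective tissue markers split the areas in the same way, with 6 of 6 higher in TN2 and TN3 than in TN1 and HC, as were 7 of 8 macrophage markers. Their part in the level of Clcf1 was not tested. Without the spots of cluster 6 Clcf1 was at 11.2 CPM in TN2, 9.99 CPM in TN3, 0.723 CPM in TN1 and 0.339 CPM in HC. These sums kept the connective tissue region, with 109 spots in TN2, 51 in TN3, 1 in TN1 and 0 in HC.

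Cntf was at 141 ± 58.4 CPM in TN and 101 CPM in HC, with TN1 and TN3 above and TN2 below HC (log2 0.49, SE 0.55, adjusted p = 0.743). The areas with many peripheral myelin spots were those with high Cntf: 410 such spots in TN1 and 395 in TN3, 13 in TN2 and 18 in HC. Without these spots the log2 difference of Cntf turned from 0.49 to -0.07, an alternative chosen after the data had been seen, and the levels were 90.1 CPM in TN1, 74.2 CPM in TN2, 122 CPM in TN3 and 95 CPM in HC. Leaving out the region richest in Cntf lowers the level by construction in the areas that hold many of its spots. The part of these spots in the difference of Cntf was not tested. Il6st was at 1.9 ± 0.137 CPM in TN and 1.41 CPM in HC (log2 0.43, SE 0.45, adjusted p = 0.726). Cntfr (log2 -0.13, SE 0.35), Lifr (-0.14, SE 0.37) and Stat3 (-0.14, SE 0.31) differed from HC by less than their standard errors. Osmr had 6 UMIs in HC (log2 1.15, SE 1.17). Socs3 had 19 UMIs in TN and 2 in HC, a ratio of 4.15 with a counting interval from 1 to 36.8.

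**Figure D3:**
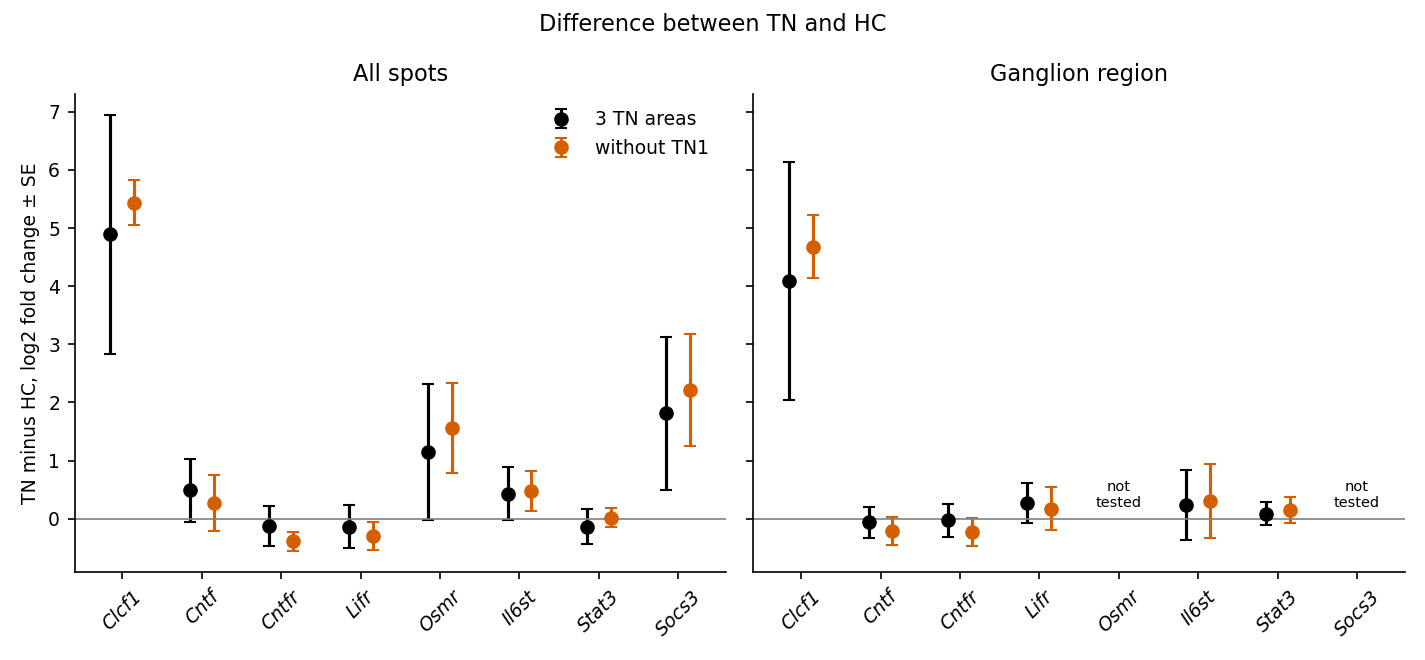
Log2 fold change of TN over HC with its standard error (vertical axis) for the 8 genes, over all spots (left) and in the ganglion region (right). Black points use 3 TN areas and orange points leave out TN1, and Osmr and Socs3 had too few UMIs to be tested in the ganglion. Clcf1 lies at 4.89 and 4.09 with 3 areas and at 5.44 and 4.68 without TN1, with a much smaller error. TN1 was the TN area closest to HC in Clcf1. The other 5 genes tested in the ganglion lie within 1 of 0.

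The same split held within the ganglion, where 0 of 12829 genes were called by edgeR (0%), with 1189 at an unadjusted p under 0.05 and 119 called by DESeq2. Clcf1 had 0 (TN1), 153 (TN2), 49 (TN3) and 8 (HC) UMIs, or 0, 9.4, 7.15 and 0.32 CPM (log2 4.09, SE 2.05, adjusted p = 0.562). The 0 UMIs of TN1 allow up to 0.393 CPM by the exact 95% Poisson interval, so TN1 could not be told from HC. Without TN1 its log2 difference was 4.68 (SE 0.54), again in a fit that leaves out the TN area closest to HC. Connective tissue markers in the ganglion summed to 1084 CPM in TN1, 3345 CPM in TN2, 2517 CPM in TN3 and 1076 CPM in HC, and 6 of 6 were again higher in TN2 and TN3. Lifr was the single member tested that lay above HC in all 3 TN areas (27.3% of genes did, and 29.7% lay below, with 0 members), at 6.73 ± 0.901 CPM against 5.6 CPM (log2 0.27, SE 0.35, adjusted p = 0.814). Cntf was at 66 ± 13.4 CPM in TN and 68.9 CPM in HC, Cntfr at 37 ± 8.88 and 37.7 CPM, Il6st at 1.34 ± 0.354 and 1.16 CPM, and Stat3 at 210 ± 20.5 and 198 CPM. Their log2 differences were -0.07 (SE 0.26), -0.03 (SE 0.29), 0.24 (SE 0.60) and 0.09 (SE 0.20), with adjusted p from 0.906 to 0.982.

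In central myelin 0 of 9177 genes were called by edgeR (0%, with 295 at an unadjusted p under 0.05 and 4 called by DESeq2), and 3 members had enough UMIs to be tested. Cntf was below HC in all 3 TN areas (20.9% of genes were, and 20.3% above, with 0 members), at 78.8 ± 22.6 CPM against 98.3 CPM (log2 -0.31, SE 0.32, adjusted p = 1). Cntfr was at 31.2 ± 3.78 against 27.4 CPM and Stat3 at 91 ± 21.3 against 101 CPM. In cluster 4, a comparison chosen with the data in view, 6 of 10853 genes were called (0.0553%, all higher), and 0 of 5 members tested were among them. Cntf was below HC in all 3 TN areas there too (25.6% of genes were, and 23.6% above, with 0 members), at 239 CPM in TN1, 148 CPM in TN2, 153 CPM in TN3 and 246 CPM in HC (log2 -0.43, SE 0.28, adjusted p = 0.756). The summed peripheral myelin markers in cluster 4 were at 28160 CPM in TN1, 37990 CPM in TN2, 37270 CPM in TN3 and 55320 CPM in HC, so that HC was highest in both and TN1, close to HC in Cntf, was lowest in the markers. Their part in the level of Cntf was not tested. The peripheral myelin region itself could not be tested between TN and HC, with 18 spots in HC.

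Whether the difference between TN and HC itself differed between ganglion and central myelin was tested as an interaction. Of 11052 genes 3 were called (0.0271%), and 0 of 6 members tested were, with adjusted p from 0.904 to 1. Among the genes called was Gal, which encodes the neuropeptide galanin, a target of the pathway in injured sensory neurons (3.63, SE 0.40, adjusted p = 0.0197).

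Within the TN areas, the ganglion region consisted of 2 clusters. The cluster named injury-led was led by Csrp3, Gal, Reg3b, Vip and Vgf, and held 49 (TN1), 331 (TN2), 68 (TN3) and 0 (HC) spots. The neuron-led cluster held 149, 40, 95 and 659 spots. Both lie in the same sections, so that comparing them within areas does not use HC. The clusters were cut on the expression of other genes, so that genes varying with these differ between them by construction to some extent. Of 10007 genes 26.3% passed (13.2% higher in the injury-led cluster, 13.1% lower). Of 5 members tested, 2 were higher, both of them ligands, and 0 were lower.

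Cntf was at 100.3 CPM in the injury-led and 71.8 CPM in the neuron-led cluster of TN1, at 56.1 and 36.7 CPM in TN2 and at 80.7 and 60.4 CPM in TN3. It was higher in the injury-led cluster in 3 of 3 areas, as were 27.6% of genes (log2 0.51, SE 0.10, adjusted p = 0.000296), although the areas differed more from each other than the clusters did. Clcf1 had 0 UMIs in both clusters of TN1, and was at 10 against 7.5 CPM in TN2 and at 12.5 against 4.13 CPM in TN3 (log2 0.95, SE 0.33, adjusted p = 0.0322). It did not pass with DESeq2 (adjusted p = 0.279) or with 12 clusters (0.395), and without TN3 the log2 difference was 0.44 (adjusted p = 0.544). Without the area block Cntf (adjusted p = 0.411) and Clcf1 (0.56) did not pass.

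The receptors and the transducer did not pass. Cntfr was lower in the injury-led cluster in 3 of 3 areas, as were 25.9% of genes (log2 -0.24, SE 0.12, adjusted p = 0.147). Its levels were 44.7 against 47.4 CPM in TN1, 28.4 against 36.7 CPM in TN2 and 30.7 against 38.6 CPM in TN3. Lifr was higher in the injury-led cluster in 3 of 3 areas, as were 27.6% of genes (log2 0.42, SE 0.26, adjusted p = 0.258). Stat3 was at 189 against 191 CPM in TN1, 234 against 250 CPM in TN2 and 236 against 196 CPM in TN3 (log2 0.06, SE 0.08, adjusted p = 0.669). The injury-led spots held more Schwann cell, connective tissue and macrophage RNA. Peripheral myelin markers summed to 15160 against 9395 CPM in TN1, 17070 against 8464 CPM in TN2 and 18160 against 11810 CPM in TN3, connective tissue markers to 1383 against 987, 3573 against 2065 and 3379 against 2027 CPM, and macrophage markers to 395 against 252, 724 against 355 and 612 against 373 CPM. Their part in the ligand levels was not tested. Median UMIs per spot ran from 35825 to 46943 in the injury-led and from 43955 to 57827.5 in the neuron-led cluster of the TN areas.

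**Figure D4:**
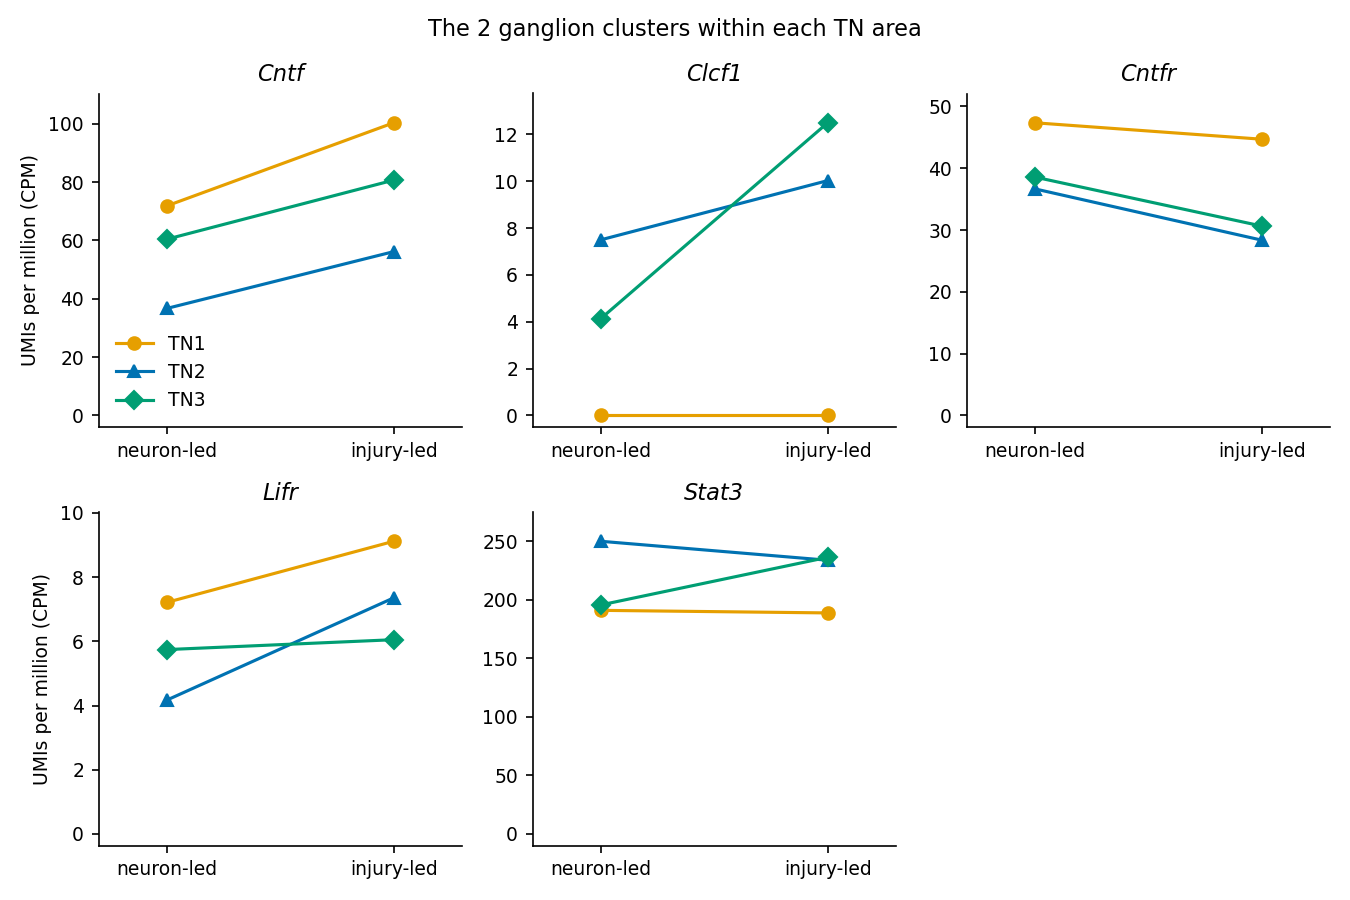
Level in CPM (vertical axis) in the neuron-led and the injury-led ganglion cluster of each TN area, joined by a line per area. Cntf is higher in the injury-led cluster in all 3 areas, as were 27.6% of genes. Clcf1 is higher there in TN2 and TN3, with 0 UMIs in TN1. Cntfr is lower in all 3, as were 25.9% of genes, without passing the test, while the lines of Stat3 cross.

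Other genes of the pathway were taken from lists of ligands, receptors, transducers, inhibitors and STAT3 target genes, 54 of which were found in the table with the members included. In the injury-led against the neuron-led cluster, 1 of 4 receptors tested was higher (Il6r, the interleukin-6 receptor, log2 1.06, SE 0.25, adjusted p = 0.00264). So were 3 of 9 transducers, 1 of 7 inhibitors (Ptpn6) and 11 of 15 target genes, and 0 were lower in each of these lists. Of all genes tested 13.2% were higher and 13.1% lower. The median log2 difference was 0.14 for the receptors, 0.11 for the transducers, 0.20 for the inhibitors and 0.76 for the targets, and 0.01 for all genes tested. Among those higher were Gal (log2 2.10, adjusted p = 1.22e-12) and Vip (log2 2.32, adjusted p = 4.06e-12), both neuropeptides, Hamp, which encodes hepcidin (log2 1.87, adjusted p = 4.08e-09), and Reg3b, a secreted lectin (log2 1.75, adjusted p = 5.55e-09). Gal, Vip and Reg3b are among the genes that lead this cluster, and their differences are given as a description of it. The lists were chosen with earlier results of these data known, so their counts and medians are a description too.

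Between TN and HC most target genes lay above HC, while edgeR called none over all spots, in the ganglion or in central myelin. The list was chosen with earlier results of these data known, so its counts and medians are a description of these genes. Of 18 target genes tested over all spots 15 had a log2 difference above 0, with a median log2 difference of 1.74 (all genes 0.07). Of these 18, 12 lay above HC in all 3 TN areas (28.7% of all genes did) and 2 below (30.6%). In the ganglion 14 of 16 had a log2 difference above 0, with a median of 1.38 (all genes 0.03). There 12 lay above HC in all 3 areas (27.3% of all genes) and 2 below (29.7%). In central myelin 11 of 13 had a log2 difference above 0, with a median of 0.98. There 6 lay above HC in all 3 areas (20.3% of all genes) and 0 below (20.9%). In cluster 4, where 3 were called, 13 of 15 had a log2 difference above 0, with a median of 1.09. There 11 lay above HC in all 3 areas (23.6% of all genes) and 2 below (25.6%). Hamp was at 18 ± 7.2 CPM in TN and 0.126 CPM in HC over all spots (log2 7.12, SE 0.82, adjusted p = 0.556), from 374 to 1038 UMIs in the TN areas and 5 in HC. Sprr1a, a small proline-rich protein of injured neurons, had 580 UMIs in TN and 2 in HC, a ratio of 127 with a counting interval from 34.9 to 1049. Reg3b was at 27.4 ± 14 CPM and 1.29 CPM (log2 4.41, SE 0.78, adjusted p = 0.556). In TN1, where Clcf1 was near HC, Hamp was at 16.5 CPM, Sprr1a at 4.79 CPM and Reg3b at 22.7 CPM. Lcn2 (lipocalin 2; log2 -1.08, SE 0.28), Il11ra1 (the interleukin-11 receptor; -0.92, SE 0.25) and Cish (an inhibitor of cytokine signalling; -0.36, SE 0.34) were below HC in all 3 TN areas, with adjusted p from 0.556 to 0.694. For Cish this held in TN1 by a narrow margin, at 34.2 CPM against 34.8 CPM in HC. Before TMM normalization Cish in TN1 lay above HC, at 34.6 against 33.3 CPM.

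In the ganglion Hamp had 1204 UMIs in TN and 3 in HC, a ratio of 324 with a counting interval from 110.7 to 1575 (adjusted p = 0.0917), and Sprr1a had 424 and 2, a ratio of 171 (interval 47.1 to 1419, adjusted p = 0.223). Reg3b was at 54.5 ± 25.3 and 1.68 CPM (log2 5.02, SE 0.65, adjusted p = 0.204). Il11ra1 (log2 -0.92), Gfap, the astrocyte and satellite glia filament gene (-0.93), and Lcn2 (-0.61) lay below HC in all 3 areas, with adjusted p from 0.531 to 0.572. In central myelin the widest among genes with 50 or more UMIs there were Timp1, a protease inhibitor (log2 2.26, SE 0.79), Cebpd (1.76, SE 0.36) and Junb (1.17, SE 0.59), which encode transcription factors, above HC, and the cytokine signalling inhibitor genes Pias3 (-0.33) and Socs2 (-0.15) with Il11ra1 (-0.32) below, each at an adjusted p of 1. In cluster 4 the 3 target genes called were Gal (log2 2.78, SE 0.28), Reg3b (4.52, SE 0.46) and Hamp, with 147 UMIs in TN and 1 in HC (a ratio of 122, interval 21.6 to 4860.0), at an adjusted p of 0.0119 each. TN2 had only 21 spots of cluster 4, with 111 UMIs of Gal, 15 of Reg3b and 9 of Hamp.

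The target genes were read for the STAT binding motif TTCNNNGAA, which is its own reverse complement, in the 250 bases before the start of each gene (RefSeq, GRCr8). The motif was in 7.67% of 33469 rat promoters, in 6 of the 40 promoters of pathway genes with an entry (Cish, Hamp, Icam1, Reg3b, Serpina3n and Socs1), and in 0 of the 6 of members (Cntf, Il6st, Lifr, Osmr, Socs3 and Stat3). Clcf1 and Cntfr were not among the entries. The windows of Hamp (chr1:95300360-95300408, minus strand, the match 117 bases before the start) and Reg3b (chr4:112419627-112419675, plus strand, 129 bases before) are shown because both genes were higher in the injury-led cluster and were called in cluster 4, with the match in capitals:
Hamp: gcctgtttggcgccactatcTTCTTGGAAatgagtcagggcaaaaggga
Reg3b: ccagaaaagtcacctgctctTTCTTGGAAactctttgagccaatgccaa
Both held the same 9 letters, TTCTTGGAA. A match is a description of the letters and not a measured site, and Gal, Vip and Sprr1a, which were also higher in the injury-led cluster, had 0 matches in this window.

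The genes most like each member were named by Pearson's r of log2(CPM + 5) over 26 points, each 1 region in 1 area, among 9329 genes. The points of an area share its library, so r is a description. Cntf was most like Cyb5r2 (0.961), Svip (0.945) and Maob (0.918), and Clcf1 most like Rdh10 (0.953), Ier5l (0.943) and Bmp1 (0.935). For Stat3 they were Iffo1 (0.931), Nagk (0.925) and Gnb2 (0.925), for Cntfr Lingo1 (0.901), Csdc2 (0.895) and Nell2 (0.89), for Il6st Ppp2r3a (0.845), Nfia (0.829) and Bmpr1a (0.828), and for Lifr Ddn (0.682), Vat1l (0.677) and Etv5 (0.675), the least close. In RefSeq Clcf1 overlaps Rad9a, and Il6st overlaps LOC134485838, which is absent from the count table. Cntf lies next to Zfp91 and Stat3 next to Stat5a. Rad9a had 2, 5, 5 and 2 UMIs in TN1, TN2, TN3 and HC, and Zfp91 was at 60.3, 55.4, 54 and 56.7 CPM. Rad9a, with at most 5 UMIs an area, was like Clcf1 higher in TN2 and TN3, and Zfp91 did not follow the order of Cntf over the areas. Stat5a was at 19.7, 29.8, 27.6 and 24.6 CPM in TN1, TN2, TN3 and HC, like Stat3 lowest in TN1 and highest in TN2.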

How the data were processed

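The deposited table holds raw UMI counts per gene and spot, made by the authors with Space Ranger (version 1.2.0 in the file header) and STAR. For the genome build and annotation, nothing is given in the sources used here. Each barcode's suffix gave its capture area, and 2337 of 3573 barcode sequences occur in more than 1 area, as the printed slides share them. All 6773 spots were kept, without a doublet caller. Counts were normalised with SCTransform (Seurat 5.3.0), and 3000 variable genes, with pathway genes left out, gave 30 principal components and 10 K-means clusters (50 starts). A cluster was named from its highest tissue marker list in mean centred log2(CPM + 5), and stayed unnamed where the next was within 0.25. The nerve injury, satellite glia and endothelium lists did not name clusters. Nerve injury was the highest list in the injury-led ganglion cluster (1.756, against 0.962 for sensory neuron). UMIs were summed per area, or per area and region with 20 or more spots. Sums were tested in edgeR 4.0.16 (R 4.3.3) by the quasi-likelihood test, with TMM normalisation, edgeR's default filter on low counts and Benjamini-Hochberg adjustment over all genes tested, and a gene was called at an adjusted p under 0.05. Contrasts between regions had the area as a block, since their sums come from the same sections. DESeq2 1.42.0, its size factors, no filter, other gene and spot filters, 8 or 12 clusters, pathway genes kept in the clustering and left-out areas were alternatives. The tests were tried on simulated data.

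The samples are 3 TN areas and 1 HC area as labelled, with 23546025 to 41335930 UMIs, which sets the precision of rare genes. Beside the 8 members, pathway genes were named by a rule: up to 5 in each direction with the smallest p among those called, or, where none was called, up to 3 in each direction with the largest log2 difference among those with all 3 TN areas on 1 side of HC and 50 or more UMIs, and the 3 genes most like each member with 50 or more UMIs. The members and lists were chosen with earlier results of these data known. Results for some genes are not reported here.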

Additional observations from a re-analysis of the deposited data

Results flagged for a closer look

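Gal, the galanin gene and a target of the pathway in injured sensory neurons, differed between regions in its change with TN, by the test of the interaction in edgeR. Its log2 difference between TN and HC was larger by 3.63 in the ganglion than in central myelin (SE 0.40, adjusted p = 0.0197). Without TN2 the value was 3.32 (adjusted p = 0.0921) and with 12 clusters 3.58 (adjusted p = 0.156), while DESeq2 gave 3.65 (adjusted p = 2.07e-09). TN was compared with 1 HC area, so capture area and condition cannot be told apart.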

How the results depend on the processing

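No paired analysis was possible because TN and HC share fewer than 2 replicate numbers, with 1 HC area. Among the single genes, 971 values kept direction and call, 38 lost a call, 27 gained one and 24 turned. In TN against HC over all spots DESeq2 called 144 genes, and leaving out 1 TN area gave 0 to 2171, the highest without TN1. In the ganglion DESeq2 called 119, no filter 20, 8 clusters 3, 12 clusters 1, and leaving out 1 area 0 to 964. In central myelin DESeq2 called 4, no filter 1, and leaving out 1 area 0 to 440. In cluster 4 (6 called) DESeq2 called 40, no filter 268, and leaving out 1 area 8 to 167. The interaction (3 called) gave 94 without the filter, 7 with 8 clusters, 1 with 12 clusters and 0 to 20 with 1 area left out. The cause of these shifts was not tested.

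Without the area block, ganglion against peripheral myelin fell from 6148 to 3711 calls, peripheral against central myelin from 1959 to 868, and the injury-led against the neuron-led cluster from 2632 to 168. DESeq2 gave 3851, 971 and 1159 in the same contrasts, and leaving out 1 area 1429 to 2673 in the last, the lowest without TN2.

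Small log2 differences turned sign. With 1 TN area left out, they ranged over all spots from -0.39 to 0.013 for Cntfr and from -0.25 to 0.017 for Stat3 (0.017 without TN1), in the ganglion from -0.21 to 0.10 for Cntf and from -0.23 to 0.14 for Cntfr, and in central myelin from -0.32 to 0.037 for Stat3. In cluster 4 the ranges were -0.053 to 0.32 for Cntfr, -0.48 to 0.0042 for Lifr and -0.050 to 0.22 for Stat3, in the interaction -0.28 to 0.28 for Lifr and -0.31 to 0.13 for Il6st, and between the ganglion clusters -0.034 to 0.15 for Stat3. Other alternatives turned Cntf over all spots without peripheral myelin spots (-0.070), Cntfr in the ganglion with 8 clusters (0.13) and 12 clusters (0.023), and Socs2 in central myelin with 8 clusters (0.079). In the interaction they turned Il6st with DESeq2 size factors (0.016), DESeq2 (0.0029) and no filter (0.12), Lifr with no filter (0.072) and 12 clusters (0.14), and Cntf (-0.31) and Cntfr (0.021) with 8 clusters.

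Areas could not be left out of the contrasts of peripheral myelin, which rest on 2 areas, and with 8 clusters the ganglion was 1 cluster. Osmr, Socs3 and, within regions, Il6st rest on few UMIs. The cause of their low counts was not tested.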

Other observations

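The other ligands of the family were rare in all 4 areas. Lif, the leukaemia inhibitory factor gene, had 1 (TN1), 7 (TN2), 1 (TN3) and 1 (HC) UMIs. Il6 had 4, 10, 5 and 0 UMIs in the same order, Osm had 5, 22, 31 and 6, and Il11 had 3, 23, 19 and 17. Il6r, the receptor of interleukin-6, was at 7.14 CPM in TN1, 12.9 CPM in TN2, 19.3 CPM in TN3 and 4.89 CPM in HC, and lay above HC in all 3 TN areas without a call.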
